A study of Rattus norvegicus with 3 samples.

Results

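Among 24664 nuclei of the rat heart, 510 carried RNA of Cd163, Mrc1 or F13a1, with little RNA of other cardiac cell types. Cd163 and Mrc1 encode scavenger receptors, and F13a1 a coagulation factor. The 510 are described here as Cd163/Mrc1 macrophage nuclei, or member nuclei, though not every one had both genes. They were chosen by measured values. A member nucleus had at least 4 unique molecular identifiers (UMIs, each standing for 1 captured RNA molecule) of Cd163, Mrc1 and F13a1 together. The cardiomyocyte genes Actn2, Rbm20, Cmya5 and Mlip had to be under 0.4% of its UMIs, the fibroblast genes Dcn, Pdgfra and Bicc1 at most 1 UMI, the endothelial genes Flt1, Ptprb and Cyyr1 at most 1 UMI, and the lymphatic genes Ccl21, Reln and Mmrn1 at most 2 UMIs. Levels of these 16 genes in members are therefore a description of the choice and not a finding.

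The study compared hearts of rats with lesions of the dystrophin gene Dmd. Nuclear RNA was sequenced in 1 library from wild-type rats (WT), 1 from rats lacking exons 45 to 47 of Dmd (BMD, a model of Becker muscular dystrophy, in which dystrophin is shortened) and 1 from rats lacking exon 52 (DMD, a model of Duchenne muscular dystrophy). All were 12 months old, and the lines were kept on the outbred Sprague Dawley background. As germline deletions, both are carried by every cell of the animal, macrophages included. Nuclei came from the heart apex with parts of the septum and both ventricles, and were sorted on the DNA dye DAPI. The number of nuclei per library was the one the study states, and the barcodes with most UMIs were taken. They held 17160871, 14971887 and 13766688 UMIs in WT, BMD and DMD, with at least 513, 525 and 546 in each nucleus. With 1 library per genotype no difference between genotypes could be tested. All intervals are at 95% and reflect the counting of UMIs or nuclei, not differences among animals, and the effect of genotype cannot be told apart from that of the animal or the library. The sources used here do not say how many hearts entered a library. Of the nucleus barcodes, 20 were shared between WT and BMD, 12 between WT and DMD and 12 between BMD and DMD. Where 3 values are given in a row they are those of WT, BMD and DMD, and where 2 log2 ratios are given they are BMD over WT and DMD over WT.

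Cardiac macrophages clear dead cells and debris, take up iron and lipids, and exchange signals with cardiomyocytes and fibroblasts. A part of them is seeded before birth and renews itself in the tissue, and is known in rodents for Cd163, Mrc1 (CD206), Lyve1 and Folr2. Other cardiac macrophages derive from blood monocytes and carry more major histocompatibility complex (MHC) class II. Origin and residence were not measured here, and the nuclei are named by their RNA.

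The WT library gave 177 member nuclei, the BMD library 197 and the DMD library 136. They held 240367, 245752 and 154708 UMIs in all. The median member had 1187, 1155 and 1033 UMIs, against 1213, 1508 and 1234 UMIs in all other nuclei. Mrc1 was found in 93.8%, 95.4% and 94.1% of members, F13a1 in 84.7%, 81.2% and 79.4%, and Cd163 in 79.1%, 73.6% and 76.5%. All 3 genes were present together in 63.3% of WT, 60.9% of BMD and 61.0% of DMD members. The median sum of the 3 genes was 10 UMIs in WT and 8 in BMD and DMD. Just inside the threshold, at 4 UMIs, were 19, 23 and 13 nuclei. Just outside it, at 3 UMIs, were 21, 44 and 19 nuclei that met every other limit.

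Free RNA in the droplets can give a nucleus UMIs of genes it does not express, so shares were set beside those of other nuclei. After each nucleus was thinned to 500 UMIs, Mrc1 was seen in 79.1% of WT, 79.2% of BMD and 77.9% of DMD members (93.8%, 95.4% and 94.1% before thinning). In nuclei with at least 4 UMIs of the fibroblast genes and at most 1 of the rule genes, the share with Mrc1 was 0.276%, 0.145% and 0.796%. These background nuclei had been held to at most 1 UMI of Cd163, Mrc1 and F13a1, so their shares are low in part by choice. For Csf1r, the receptor of the macrophage growth factor CSF1, no such limit was set. It was seen in 31.1%, 37.1% and 36.8% of thinned members and in 0.368%, 0.218% and 0.487% of fibroblast nuclei, whose median depth was 1435, 1942.5 and 1608 UMIs.

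Markers outside the rule were those of a macrophage in every library. Csf1r had 180, 203 and 132 UMIs in the WT, BMD and DMD members, or 748.9, 826.0 and 853.2 counts per 1000000 UMIs (CPM). All other nuclei had 24.6, 20.1 and 29.4 CPM of it. Of 15 genes common to macrophages, each had at least 2 UMIs in the members of every library. The fractalkine receptor gene Cx3cr1 was close to absent, with 2, 4 and 6 UMIs. Of the marker lists of other leukocytes some genes were absent and others were not. The T cell genes Cd3e and Cd3d and the B cell genes Ms4a1, Cd79b and Pax5 had 0 UMIs in all members. The dendritic cell genes Xcr1, Clec9a and Siglech also had 0. A list of 5 mast cell genes had 0, 0 and 1 UMI, and the neutrophil collagenase gene Mmp8 had 0. The dendritic cell factor gene Zbtb46 had 20, 14 and 17 UMIs and Flt3 7, 0 and 5. The T cell adaptor gene Skap1 had 13, 11 and 9 UMIs. The neutrophil genes S100a9 and S100a8 had 17, 10 and 19 and 9, 2 and 9 UMIs. Timd4, Cbr2 and Ccr2, further markers used to divide cardiac macrophages, were not analysed here.

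The identity of the members was read from genes that the rule did not use. Levels were set beside those of all other nuclei of the same library, as log2 ratios of CPM + 5, and only genes with at least 100 UMIs over the members of the 3 libraries were compared, 1629 in all. Of these, 28.2% were at least 2-fold higher in members than in other nuclei in all 3 libraries and 3.38% were at least 2-fold lower. This contrast is the one the rule used, so nothing is read from these shares.

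Asgr2 and Stab1 had the highest ratios by the least extreme library, followed by C1qc. Stab1, the receptor stabilin-1 that takes up modified lipoproteins and cell debris, had 1261 CPM in WT, 1571 in BMD and 1370 in DMD members. In the other nuclei it had 14.5, 25.5 and 32.7 CPM, so the log2 ratio was between 5.19 and 6.02. Asgr2, a subunit of the asialoglycoprotein receptor, had 432.7, 341.8 and 543.0 CPM in members and at most 8.52 CPM in the other nuclei of any library. Siglec1, a sialic acid receptor of tissue macrophages, had 145.6, 175.0 and 155.1 CPM in members and 1.30, 3.33 and 2.35 CPM elsewhere. Folr2, the beta folate receptor, had 187.2, 341.8 and 303.8 CPM in members and 2.66, 6.79 and 8.01 CPM elsewhere.

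Among the 15 were also complement genes. The 3 chains of C1q, which tags debris for uptake, were far above other nuclei in each library. C1qa had 361.9, 423.2 and 478.3 CPM in WT, BMD and DMD members. C1qb had 461.8, 333.7 and 614.1 CPM, and C1qc 540.8, 594.1 and 814.4 CPM. Their levels in all other nuclei stayed between 5.67 and 19.9 CPM. Among the 15 leading genes were also the receptor genes Csf1r, Adgre1 (F4/80), Cd4, which rat macrophages carry as well as T cells, and Tlr7, a sensor of single-stranded RNA. Aoah, which inactivates bacterial lipopolysaccharide, Alox5, the first enzyme of leukotriene synthesis, the RNA-editing enzyme gene Apobec1 and the potassium channel gene Kcnt2 completed them. Kcnt2 had 2787, 2352 and 3368 CPM in members and 74.8, 77.0 and 117 CPM elsewhere.

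**Figure D1:**
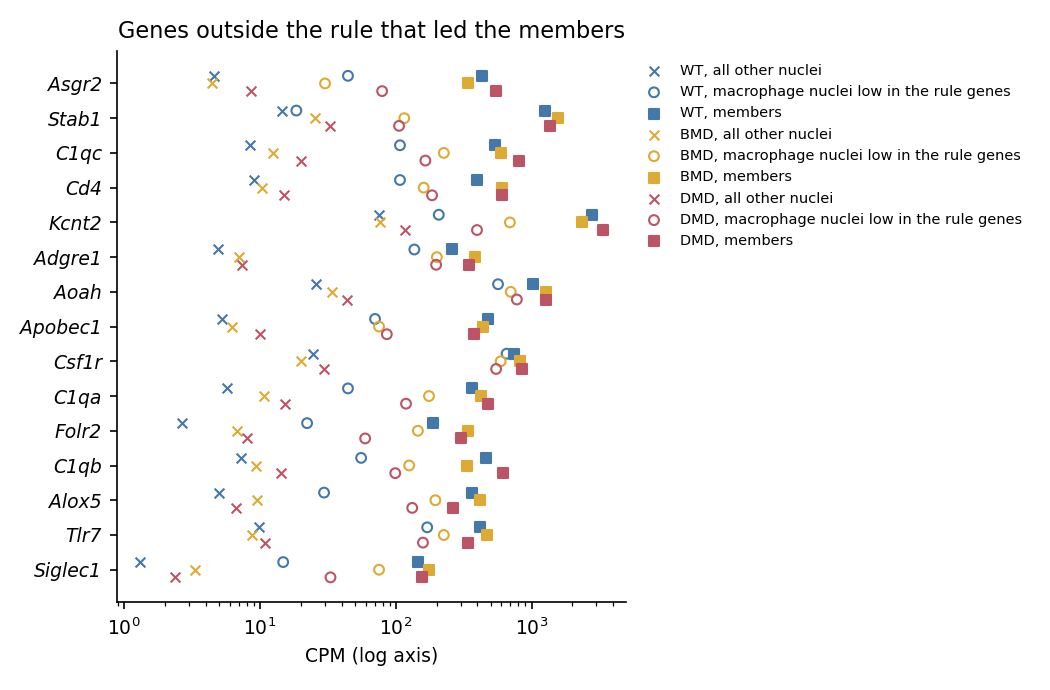
Levels in CPM (log axis) of the 15 genes outside the rule with the highest ratio of members over all other nuclei, in members (filled squares), in macrophage nuclei low in the rule genes (open circles) and in all other nuclei (crosses), by library. In every library each gene was higher in members than in all other nuclei, with Csf1r at 748.9 to 853.2 CPM in members.

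Promoter sequences of these genes were read from RefSeq (build GRCr8), as the 250 bases before each annotated start. PU.1, encoded by Spi1, is the factor that macrophage genes depend on, and its binding box holds the core GAGGAA. Spi1 itself had 46, 38 and 32 UMIs in the WT, BMD and DMD members. Of the 15 leading genes and the 3 rule genes, 14 were matched and 8 held GAGGAA or its reverse complement TTCCTC, against 23.3% of all 33469 promoters of the same length. Such a match is a string of letters and not a binding site. The windows of F13a1 and Mrc1, which chose the nuclei, and of Stab1, the scavenger receptor described above, are shown 5′ to 3′ in the direction of the gene, with the motif on either strand in capitals.
F13a1 (chr17:28020947-28021196, plus strand): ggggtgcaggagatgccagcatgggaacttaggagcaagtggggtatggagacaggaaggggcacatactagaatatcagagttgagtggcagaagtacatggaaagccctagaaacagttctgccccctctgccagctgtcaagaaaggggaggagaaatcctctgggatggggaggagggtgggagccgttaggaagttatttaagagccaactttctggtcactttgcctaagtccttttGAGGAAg
Mrc1 (chr17:82157475-82157724, plus strand): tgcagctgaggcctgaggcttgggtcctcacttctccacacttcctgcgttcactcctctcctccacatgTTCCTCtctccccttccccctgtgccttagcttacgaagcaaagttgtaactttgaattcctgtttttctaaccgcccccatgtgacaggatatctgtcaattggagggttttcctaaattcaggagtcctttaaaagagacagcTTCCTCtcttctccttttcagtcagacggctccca
Stab1 (chr16:6367360-6367609, minus strand): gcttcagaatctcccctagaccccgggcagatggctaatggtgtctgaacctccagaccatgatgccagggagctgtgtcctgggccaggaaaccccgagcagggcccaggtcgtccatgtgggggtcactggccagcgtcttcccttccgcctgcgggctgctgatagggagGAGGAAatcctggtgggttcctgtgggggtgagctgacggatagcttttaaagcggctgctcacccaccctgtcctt
In F13a1 the motif lay directly at the annotated start, and in Mrc1 it occurred 2 times on the reverse strand. No copy was present in the window of Cd163.

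The members were next set beside macrophage nuclei of the same libraries that lacked the rule genes. These low macrophage nuclei had at most 1 UMI of Cd163, Mrc1 and F13a1, at least 2 UMIs of Csf1r, Adgre1, Cx3cr1, Tbxas1, Lyz2 and Mertk together, the same limits for other cell types, and at most 1 UMI each of T cell and of S100a8 and S100a9 RNA. There were 231 of them in WT, 145 in BMD and 128 in DMD. Under these limits cardiomyocyte genes summed to 1200, 6326 and 1884 CPM in them, against 1277, 2234 and 1513 CPM in members. Mural cell genes summed to 581, 216 and 1097 CPM, against 166, 183 and 465 CPM. Of the 1629 genes, 7.37% were at least 2-fold higher in members than in low macrophage nuclei in all 3 libraries and 1.41% were at least 2-fold lower. The contrast again follows from the rule.

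Led by Pdgfc and Prkcz, 8 genes were named on the high side. Pdgfc, a platelet-derived growth factor that acts on fibroblasts and mural cells, had 287.1, 203.5 and 258.6 CPM in WT, BMD and DMD members and 7.41, 5.02 and 13.2 CPM in low macrophage nuclei. Selenop, which carries selenium, had 282.9, 484.2 and 523.6 CPM against 7.41, 45.2 and 33.05. Lyve1, the hyaluronan receptor of perivascular macrophages, had 802.9, 496.4 and 620.5 CPM against 51.8, 60.2 and 33.05. Prkcz, Capn13, Rarres1 and the giant cadherin gene Fat3 were the other genes on this side, besides Stab1. Igf1, insulin-like growth factor 1, had 524, 627 and 646 CPM in members and 77.8, 155.6 and 165.2 CPM in low macrophage nuclei. The growth factor and matrix list as a whole summed to 2970, 2124 and 2081 CPM in members against 8943, 4363 and 4798. Spp1, a gene of that list, alone made up 499.2, 12.2 and 58.2 CPM of the sums in members. It made up 5118, 1687 and 2062 CPM of those in low macrophage nuclei.

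On the low side were Spp1 and Cd74. Spp1, which encodes osteopontin, a matrix protein of macrophages in injured tissue, had 499.2, 12.2 and 58.2 CPM in members against 5118, 1687 and 2062 CPM in low macrophage nuclei. Cd74, the invariant chain of MHC class II, had 337.0, 288.9 and 400.8 CPM against 1115, 1376 and 1494 CPM. Lilrb4, an inhibitory receptor of myeloid cells, had 203.9, 179.0 and 135.7 CPM against 833, 763 and 582. The other 5 genes on this side were mitochondrial, Mt-co1, Mt-co2, Mt-co3, Mt-nd2 and Mt-atp6. Summed over a list of 11 genes of MHC class II and its pathway, members had 1256, 1221 and 1383 CPM and low macrophage nuclei 3229, 4222 and 4091 CPM.

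Members with and without Lyve1 or Folr2 were compared for RNA of MHC class II, and no test of the difference was made. Nuclei were thinned to 500 UMIs for this, which none fell short of. By the whole list, which includes the protease gene Ctss and the regulator Ciita, 22.4% of 67 WT members with Lyve1 or Folr2 had an MHC class II UMI (13.1 to 34.2) against 40.9% of the 110 without (31.6 to 50.7). In BMD the shares were 29.0% of 62 (18.2 to 41.9) and 32.6% of 135 (24.8 to 41.2). In DMD they were 30.0% of 50 (17.9 to 44.6) and 30.2% of 86 (20.8 to 41.1). The intervals overlapped in every library.

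With Ctss and Ciita left out, a choice made after the values were seen, the class II genes proper gave lower shares. In WT 1 of 67 members with Lyve1 or Folr2 had such a UMI, or 1.49% (0.0378 to 8.04), against 18.2% without (11.5 to 26.7), and these intervals did not overlap. They did overlap among WT members with at most 5% mitochondrial UMIs, where the shares were 1.59% (0.0402 to 8.53) and 14.1% (7.74 to 22.95). In BMD the shares were 11.3% (4.66 to 21.9) and 17.8% (11.7 to 25.3), and in DMD 12.0% (4.53 to 24.3) and 19.8% (12.0 to 29.8). All members together reached 11.9%, 15.7% and 16.9%, and before thinning 18.1%, 22.8% and 23.5%. Fibroblast nuclei, a background for free RNA, had such a UMI in 2.97%, 2.11% and 3.85%. The share of WT members with Lyve1 or Folr2 was thus not above that background, while those of BMD and DMD had values above it with intervals that reached down to 4.66% and 4.53%.

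The first comparison between genotypes was of the share of nuclei. Members made up 1.78% of the nuclei in WT, with an exact Clopper-Pearson interval of 1.53 to 2.06. In BMD they were 2.89% (2.51 to 3.32), and in DMD 1.72% (1.45 to 2.04). The BMD share was 1.12 percentage points above WT (Newcombe interval 0.65 to 1.61). The DMD share differed from WT by -0.053 points (-0.44 to 0.34), within counting error. It was 1.17 points below BMD, a difference of -1.17 (-1.67 to -0.68). Shares are of sorted nuclei, so they also move with the number of other nuclei in the library.

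Depth did not order the libraries in the same way at every level. Among nuclei with fewer than 1000 UMIs members were 1.79%, 4.02% and 2.26% in WT, BMD and DMD. From 1000 to under 2000 UMIs they were 2.33%, 4.10% and 2.13%. In nuclei of 2000 UMIs and more they were 0.97% (25 nuclei), 0.71% (17 nuclei) and 0.31% (6 nuclei), and the BMD share was not above WT there. The limits on other cell types also removed more nuclei in DMD. They left out 51 of 228 nuclei with enough rule gene UMIs in WT (22.4%), 55 of 252 in BMD (21.8%) and 90 of 226 in DMD (39.8%). The doublet caller Scrublet, which simulates pairs of nuclei, marked 78.4%, 63.6% and 67.8% of the nuclei left out, and 3.96%, 2.03% and 5.88% of the members. Without these limits the shares were 2.29%, 3.70% and 2.86%, and the DMD share was 0.58 points above WT (0.11 to 1.06).

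The low macrophage nuclei did not share this order. They were 2.32% of WT nuclei (2.03 to 2.63), 2.13% of BMD (1.80 to 2.50) and 1.62% of DMD (1.36 to 1.93). BMD minus WT came to -0.19 points (-0.64 to 0.27), and DMD minus WT to -0.70 points (-1.10 to -0.28). When both kinds of macrophage nuclei were pooled, the portion of members was 43.4% for WT (38.5 to 48.3), 57.6% for BMD (52.2 to 62.9) and 51.5% for DMD (45.3 to 57.7). The intervals of WT and BMD did not overlap, while that of DMD overlapped both.

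**Figure D2:**
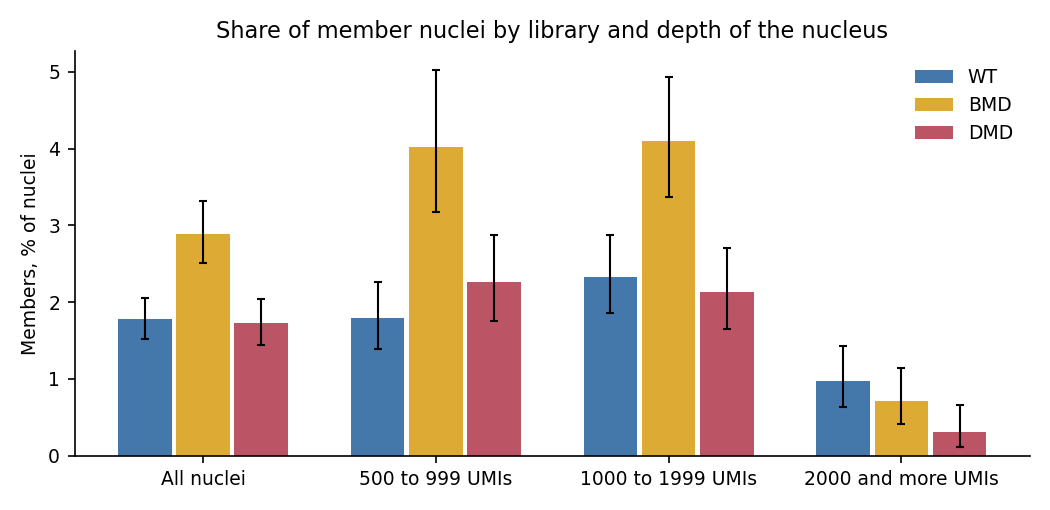
Share of member nuclei in percent of all nuclei and of nuclei in 3 ranges of depth, by library. Bars are shares and error bars exact 95% binomial intervals for counting error. BMD stands above WT and DMD over all nuclei, at 2.89%, and below 2000 UMIs, and not at 2000 UMIs and more.

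The RNA of the members was then compared between libraries, gene by gene, on UMIs summed over members and scaled to CPM. At least 2-fold higher in BMD than WT were 13 genes, 0.798% of the 1629, and at least 2-fold lower were 30, or 1.84%. For DMD over WT 20 genes were higher (1.23%) and 25 lower (1.53%). DMD was above BMD in 22 genes (1.35%) and below it in 13 (0.798%). With scaling by trimmed means that split was 15 higher and 20 lower. Without nuclei over 5% mitochondrial UMIs 1500 genes had at least 100 UMIs, and a gene that fell under that limit counted as not remaining. Of the 43 genes past 2-fold in BMD over WT, 23 remained so there. For DMD over WT 24 of 45 remained, and for DMD over BMD 28 of 35. Counts under that and other settings are given at the end. The median log2 ratio of all genes was 0.07 for BMD over WT, 0.03 for DMD over WT and -0.04 for DMD over BMD. BMD and DMD are set against the same WT library, so genes that differ in both share its error.

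**Figure D3:**
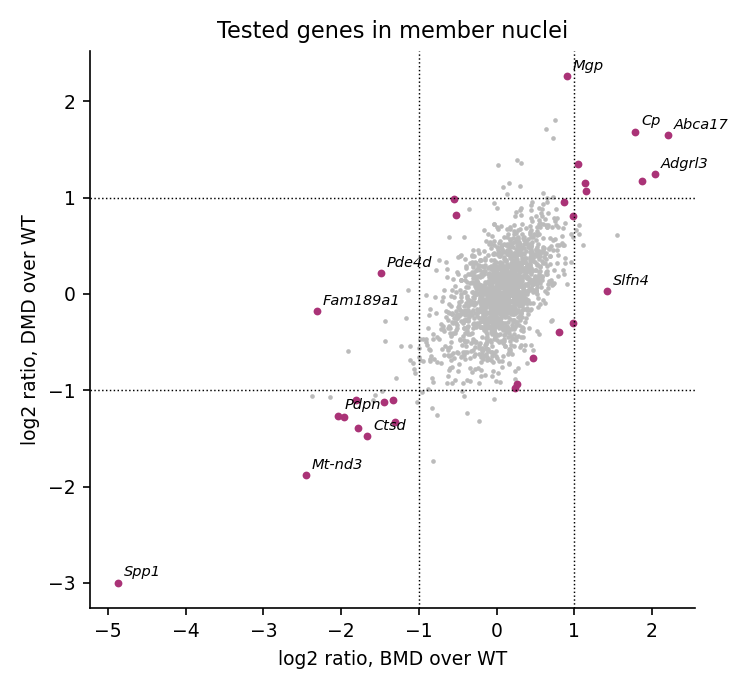
Log2 ratios of CPM + 5 in members of BMD over WT (x axis) and DMD over WT (y axis) for the 1629 genes compared. Purple points are the genes named by rule, dotted lines mark 2-fold, and both axes share the WT library. Cp and Abca17 stand high on both axes, Spp1 lies at -4.87 and -3.0, and Fam189a1, Pde4d and Slfn4 depart from WT mainly on the BMD axis.

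Cp and Abca17 led the genes that were higher in both dystrophic libraries. Cp, which encodes ceruloplasmin, the ferroxidase that helps iron leave the cell, had 33, 119 and 70 UMIs in the WT, BMD and DMD members. This was 137.3 CPM (94.5 to 192.8), 484.2 CPM (401.1 to 579.5) and 452.5 CPM (352.7 to 571.7). The WT interval lay below both others. BMD stood 1.78 log2 units over WT (1.25 to 2.42), and DMD 1.68 units (1.10 to 2.36). The UMIs came from 29, 76 and 49 nuclei, with at most 5 in any of them. The ratios over all other nuclei were of the same sign, at 0.81 and 0.70. Low macrophage nuclei had 51.8, 266.1 and 112.4 CPM of Cp (14, 53 and 17 UMIs), with BMD the highest there too.

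Abca17, a lipid transporter gene of the ABCA family, had 26, 127 and 54 UMIs in 22, 78 and 37 nuclei. Its level was 108.2 CPM in WT (70.7 to 158.5). It reached 516.8 CPM in BMD (430.8 to 614.9), against 349.0 CPM in DMD (262.2 to 455.4). On the log2 scale BMD exceeded WT by 2.20 (1.64 to 2.92) and DMD by 1.65 (0.99 to 2.42). After thinning, 4.52% of WT, 16.8% of BMD and 15.4% of DMD members had a UMI of it, against at most 0.133% of fibroblast nuclei in any library (12.4%, 39.6% and 27.2% of members before thinning). Low macrophage nuclei had 3.70 CPM in WT, 150.6 in BMD and 66.1 in DMD.

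Of the other 8 genes in this group, several are known from other cell types. Sorbs2 and Lamc1, which cardiomyocytes and vascular cells express strongly, had log2 ratios of members over other nuclei between -3.99 and -2.74. Mgp, the matrix Gla protein of fibroblasts and vessels, had 24, 47 and 77 UMIs, and 13 of the 77 were in 1 DMD nucleus. In free RNA, read from barcodes with at most 50 UMIs, Sorbs2 had 1813, 2751 and 2073 CPM, Lamc1 1279, 1786 and 1452, and Mgp 1825, 1566 and 3305. In members Sorbs2 had 112, 423 and 259 CPM, Lamc1 137, 309 and 310, and Mgp 99.8, 191 and 498. Adgrl3 had 17, 75 and 27 UMIs, of which 16 of the 27 in DMD sat in 1 nucleus. Its DMD ratio of 1.25 became 0.47, under 2-fold, without the nucleus with most of its UMIs in each library. LOC690045 had 61, 140 and 83 UMIs and LOC690097 23, 50 and 39, without a gene name in the files. Otulinl had 30, 57 and 38 UMIs, and its ratios of 0.87 and 0.95 were under 2-fold. Shld2, of the shieldin complex in DNA repair, had 26, 54 and 30, and ratios of 0.99 and 0.81.

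The 22 genes that marked the members over other nuclei or low macrophage nuclei went both ways. In BMD and DMD alike 10 of them were above WT and 5 below, 7 differed in sign, and 0 were past 2-fold. Of all 1629 genes 0.798% to 1.84% were past 2-fold in a given direction over WT, so nothing is read from the 0. How many of all genes were above or below WT in both was not counted, so nothing is read from the 10 and 5 either. The medians of the 22 were 0.14 and 0.23, against 0.07 and 0.03 for all genes. Selenop was higher in both, at 0.76 log2 units for BMD (0.33 to 1.23) and 0.88 for DMD (0.41 to 1.37). Folr2 stood at 0.85 (0.33 to 1.42) and 0.68 (0.08 to 1.32). Cd4 stood at 0.60 (0.22 to 0.99) and 0.58 (0.16 to 1.02). Apoe, a lipoprotein gene that is not among the 22, had 412, 655 and 743 CPM, ratios of 0.66 and 0.84. Lyve1 went the other way, at -0.69 for BMD (-1.03 to -0.36) and -0.37 for DMD (-0.74 to -0.01). It was seen in 30.5% of thinned WT members, 17.3% of BMD and 25.7% of DMD members (55.4%, 34.5% and 41.9% before thinning). Asgr2 stood at -0.34 and 0.32, Kcnt2 at -0.24 and 0.27, and Pdgfc at -0.49 and -0.15. None of these 8 genes was past 2-fold with all members. Without nuclei over 5% mitochondrial UMIs Folr2 was, at 1.04 in BMD (0.47 to 1.69).

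**Figure D4:**
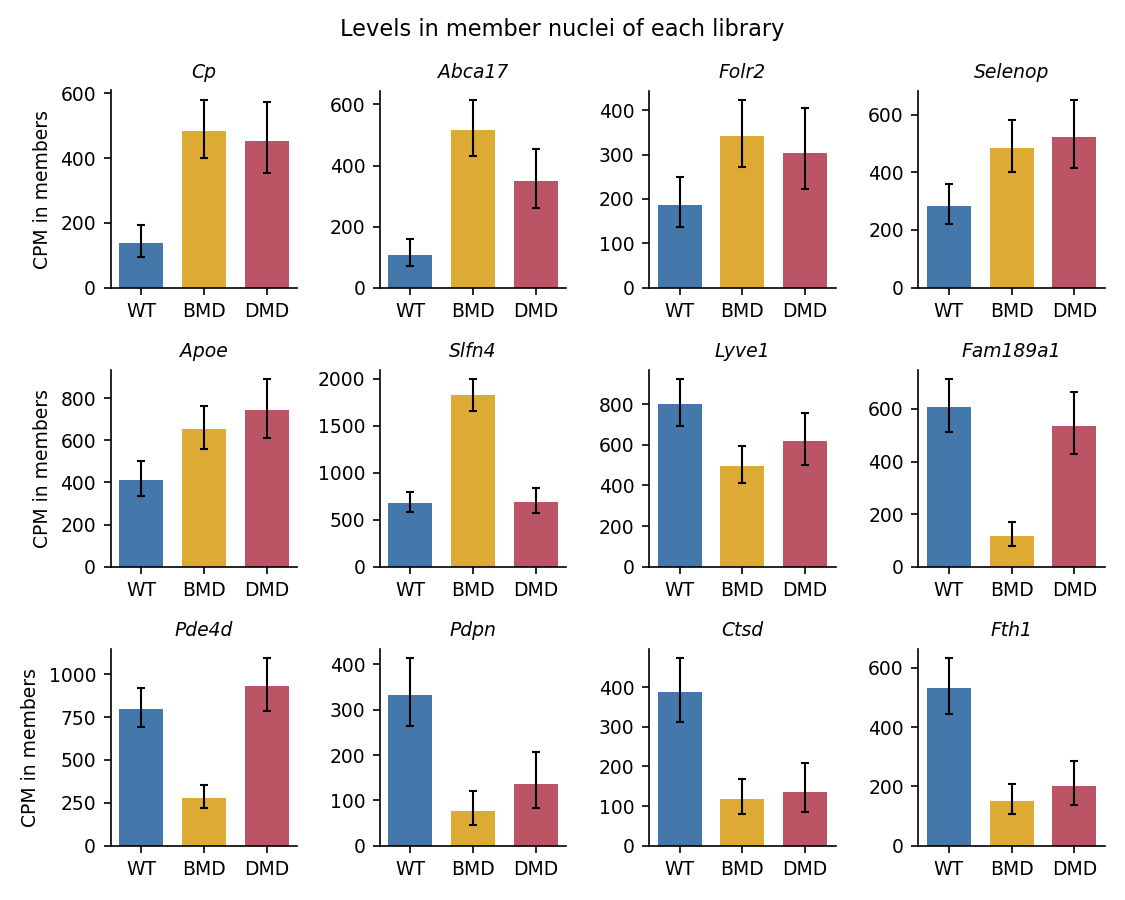
Levels in CPM of 12 genes in the members of each library, with each axis starting at 0. Bars are sums over members scaled to CPM and error bars exact 95% Poisson intervals. Cp and Abca17 are higher in BMD and DMD than WT, Slfn4 is high and Fam189a1 and Pde4d low in BMD alone, and Pdpn, Ctsd and Fth1 are highest in WT.

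In a further group BMD departed from both other libraries. Slfn4, a Schlafen gene of myeloid cells that interferon induces, had 163, 448 and 107 UMIs in the WT, BMD and DMD members. Its levels were 678.1, 1823 and 691.6 CPM. The BMD nuclei with it numbered 80 of 197, and 1 of them held 38 UMIs. Slfn4 has close paralogs, and reads that they share were not resolved here. The log2 ratio was 1.42 for BMD over WT (1.16 to 1.69) and 0.03 for DMD over WT (-0.34 to 0.39). DMD over BMD gave -1.39 (-1.72 to -1.09). Other nuclei had 0.75 and 0.73 over WT in BMD and DMD, and -0.02 for DMD over BMD. In low macrophage nuclei Slfn4 had 1333, 2099 and 1547 CPM, with BMD the highest there too.

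Fam189a1 and Pde4d were low in BMD members. Fam189a1, a membrane protein gene without a well-known role in macrophages, had 146 UMIs in 65 WT nuclei, 29 in 19 BMD nuclei and 83 in 45 DMD nuclei. The log2 ratio was -2.32 for BMD over WT (-2.99 to -1.78), -0.18 for DMD over WT (-0.59 to 0.22) and 2.14 for DMD over BMD (1.56 to 2.85). It was scarce outside the members, at 15.4, 21.3 and 26.4 CPM in other nuclei. Pde4d, a phosphodiesterase that breaks down cyclic AMP, had 798.8, 280.8 and 930.8 CPM. Its ratio was -1.49 for BMD over WT (-1.93 to -1.10) and 0.22 for DMD over WT (-0.10 to 0.54). In all other nuclei Pde4d had 769, 802 and 807 CPM. In low macrophage nuclei it had 218.5, 256.0 and 951.7 CPM (59, 51 and 144 UMIs), with DMD alone high there.

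The other genes named by the DMD to BMD comparison follow, besides Spp1 and Mgp. Gsn, the actin-severing protein gelsolin that fibroblasts express strongly, had 52, 36 and 67 UMIs, with 13 of the 67 in 1 DMD nucleus. Its ratio of 1.53 for DMD over BMD stood beside 1.69 in all other nuclei, and turned to -0.92 with free RNA subtracted. That subtraction was an upper estimate, which took all cardiomyocyte RNA in members as free, at 7.03%, 8.51% and 8.78% of their UMIs. Gsn had 3162, 1221 and 4699 CPM in free RNA and 216, 146 and 433 CPM in members. The -0.92 thus rests on the little that was left. Dop1b had 47, 33 and 54 UMIs. On the other side, Tbc1d4, a regulator of glucose transporter traffic, had 154, 218 and 62 UMIs and a ratio of -1.14 for DMD over BMD (-1.58 to -0.73), beside -0.92 in all other nuclei. Arhgap10 had 102, 125 and 34 UMIs, Cdh2 31, 64 and 16, Commd1 47, 57 and 15, and Tmem106a 31, 56 and 15. In all other nuclei these 4 stood between -0.60 and -0.17, each lower in DMD than BMD.

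Genes that were lower in both dystrophic libraries are given with and without nuclei rich in mitochondrial RNA, which were most frequent among WT members. Mitochondrial genes took 2.48% of the UMIs of WT members, 0.81% of BMD and 1.12% of DMD, against 1.75%, 1.85% and 2.41% in all other nuclei. The median member had 0.753%, 0.375% and 0.634%, and the median other nucleus 0.951%, 0.675% and 1.26%. Over 5% were 22 WT members (12.4%, 7.96 to 18.2), 4 BMD members (2.03%) and 3 DMD members (2.21%). Among all other nuclei the shares over 5% were 11.3%, 11.3% and 17.2%.

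**Figure D5:**
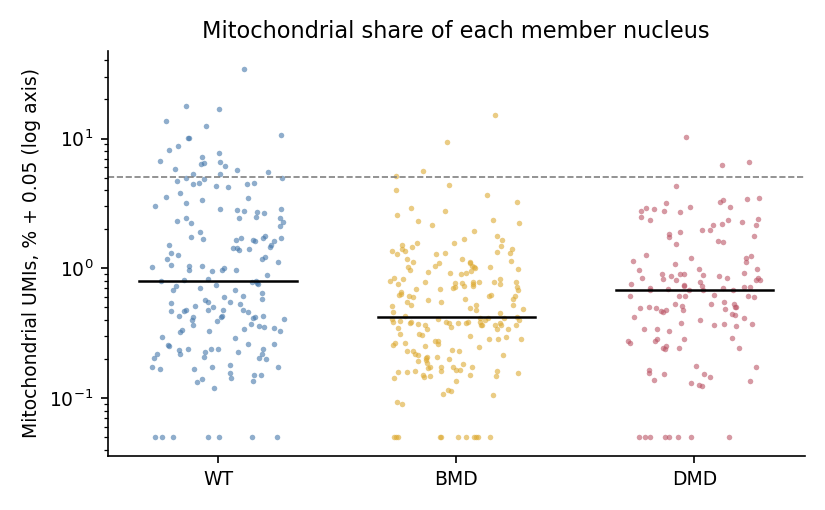
Mitochondrial share of the UMIs of each member nucleus (log axis, 0.05 added), by library. Points are nuclei, black lines medians (0.753%, 0.375% and 0.634% before the addition), and the dashed line marks 5%, above which lie 22 WT, 4 BMD and 3 DMD nuclei.

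The pooled ratios of Spp1 were past 2-fold lower with and without these nuclei. It had 120, 3 and 9 UMIs in the WT, BMD and DMD members. The WT UMIs came from 10 nuclei, 70 of them from 1 nucleus, and 88 lay in nuclei over 5% mitochondrial UMIs. The log2 ratios were -4.87 in BMD and -3.0 in DMD. Without the nuclei over 5% the UMIs were 32, 3 and 8, with ratios of -3.24 (-6.03 to -2.01) and -1.5 (-2.92 to -0.44). In thinned nuclei Spp1 was seen in 2.82% of WT, 0.508% of BMD and 4.41% of DMD members, and in 1.47%, 1.09% and 2.17% of fibroblast nuclei (5.65%, 1.52% and 6.62% of members before thinning). Fn1, fibronectin, had 68, 3 and 4 UMIs, of which 16, 3 and 3 were left without these nuclei.

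Cd74 changed sign in BMD and stood higher in DMD without them. It had 81, 71 and 62 UMIs in members, ratios of -0.22 and 0.25, and 49 of the 81 WT UMIs were in nuclei over 5%, 25 of them in 1 nucleus. Without those nuclei it stood at 0.86 for BMD (0.26 to 1.53) and at 1.34 for DMD (0.73 to 2.03). The class II list summed to 849 CPM in WT, 1246 in BMD and 1410 in DMD there, ratios of 0.55 (0.28 to 0.83) and 0.73 (0.43 to 1.03), in place of -0.04 and 0.14 with all members. This was computed after the values were seen.

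Pdpn, Ctsd, Fth1 and Rpsa kept most of their ratio without these nuclei in BMD and DMD. Pdpn, podoplanin, a membrane protein of some activated macrophages, had 80 UMIs in 43 WT nuclei, 19 in 16 BMD nuclei and 21 in 16 DMD nuclei. Its ratios were -2.04 (-2.91 to -1.37) and -1.26 (-2.06 to -0.59), and -2.04 and -1.25 without the nuclei over 5%. In all other nuclei they were -0.04 and -0.07. Ctsd, the lysosomal protease cathepsin D, had 93, 29 and 21 UMIs. It gave -1.67 and -1.48 with all members and -1.46 and -1.28 without those nuclei, beside -0.52 and -0.01 in all other nuclei. Fth1, the heavy chain of the iron store ferritin, had 128, 37 and 31 UMIs, with -1.79 and -1.39 against -1.56 and -1.11. Fth1 also stood at -0.88 in the other nuclei of BMD and at 0.00 in those of DMD. Rpsa, a ribosomal protein gene, had 108, 43 and 32 UMIs, with -1.34 and -1.10 against -1.23 and -0.91, the last under 2-fold. In all other nuclei Rpsa stood at -0.89 and -0.46. LOC100361457 had 84, 34 and 21 UMIs, and 32 of the 84 lay in nuclei over 5%. Its BMD ratio of -1.31 became -0.86 without them, under 2-fold, and its DMD ratio of -1.33 became -1.09. In all other nuclei it stood at 0.46 and 0.36. Fth1 and Rpsa have many processed copies in the genome, so their counts are uncertain.

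The remaining 4 genes of the group were mitochondrial, Mt-nd2, Mt-nd3, Mt-co2 and Mt-atp6. Mt-co2, a subunit of cytochrome oxidase, had 1279, 334 and 339 UMIs, and 760 of those in WT lay in nuclei over 5%. Its ratios of -1.97 and -1.28 became -1.32 and -0.52 without them. Mitochondrial RNA in a nuclear preparation can come from cytoplasm around the nuclei or from free RNA. In free RNA, read from barcodes with at most 50 UMIs, Mt-co2 had 5586, 10791 and 19345 CPM. Members had 5321, 1359 and 2191 CPM of it, and the part of each source was not tested. Nor was the part of such cytoplasm in the ratios of Ctsd, Fth1 and Rpsa, whose RNA is largely cytoplasmic.

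Lists of genes by function were read beside these values. They had been drawn up with earlier results of these data known, and the share of genes past 2-fold is to be set against the background of 0.798% to 1.84% given above. Of 13 resident macrophage genes in the files 9 were compared, and 0 were past 2-fold in either library with all members. Their medians were 0.32 for BMD over WT and 0.30 for DMD over WT. The list summed to 5883, 7117 and 6386 CPM, and Colec12 held 491 of its 1414 UMIs in WT, 676 of 1749 in BMD and 281 of 988 in DMD. Without nuclei over 5% mitochondrial UMIs the sums were 6446, 7168 and 6437 CPM. The ratios of the sums went from 0.27 and 0.12 to 0.15 (0.05 to 0.26) and -0.002 (-0.12 to 0.12). Gfra2 and Cd209a had 0 UMIs in all members. Of the complement and Fc receptor genes, 7 of 17 were compared with 0 past 2-fold, and medians of 0.09 and 0.40. Of the pan-macrophage genes 10 of 15 were compared, 0 were past 2-fold, and the medians were 0.18 and 0.30.

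Scavenger receptor and engulfment genes were near WT at the median. Of 16 such genes in the files 9 were compared, and their medians were 0.08 and -0.01. Only Lrp1, a receptor for many ligands including apolipoprotein E, was past 2-fold, at -1.08 in BMD, with -0.72 in DMD. Mertk, which binds dying cells through Gas6, had 666, 773 and 659 CPM. Marco had 0 UMIs in all members, Stab2 0, 0 and 1, and Tyro3 2, 0 and 0. Colec12 had 2043, 2751 and 1816 CPM, and Msr1 686, 374 and 459 CPM. Of the lineage transcription factors 7 of 15 were compared, among them Spi1, Maf, Runx1 and Zeb2, with 0 past 2-fold and medians of -0.12 and -0.16.

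Lipid, iron and lysosome lists had medians below 0 in both dystrophic libraries. In low macrophage nuclei their sums were also below WT. They were 11232, 5864 and 6563 CPM for lipid, 1974, 1074 and 1593 for iron, and 4466, 2907 and 3186 for lysosome genes. All other nuclei had 1763, 1432 and 1996, then 533, 391 and 544, and then 1022, 783 and 1022 CPM. Without members over 5% mitochondrial UMIs the lipid sum ratios went from -0.48 and -0.58 to -0.32 and -0.46. In the lipid and osteopontin list 7 of 17 were compared, and 2 were past 2-fold lower in BMD and 3 in DMD. These were Spp1 and Ctsd in both and Gpnmb in DMD. Gpnmb, a glycoprotein of lipid-laden macrophages, had 96, 55 and 18 UMIs, ratios of -0.82 and -1.74, and 18 UMIs in DMD also without the nuclei over 5%. Abca1, which exports cholesterol, had 335, 271 and 115 UMIs and ratios of -0.34 and -0.90. The list's medians were -0.37 and -0.90, while its member Apoe was higher. In the iron and heme list only Fth1, of 3 genes compared, was past 2-fold, and the sums were 2080, 1327 and 1590 CPM. Of 6 lysosome genes compared, only Ctsd was past 2-fold, with medians of -0.30 and -0.42. Lamp1 and Ctsb stood at -0.39 and -0.37 in BMD and at -0.54 and -0.42 in DMD.

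Of 15 genes of the chemokine list in the files 3 were compared. All 3, Ccl2, Ccl6 and the receptor gene Ccr1, were past 2-fold lower in BMD, and 1 in DMD. Ccl2, which draws monocytes, had 86, 19 and 26 UMIs, and ratios of -2.14 and -1.07. Without the nuclei over 5% mitochondrial UMIs these were -1.89 (-2.84 to -1.15) and -0.65 (-1.40 to 0.03). Of the 26 Ccl2 UMIs in DMD 10 lay in 1 nucleus, and nuclei that Scrublet called doublets held 10. The chemokine list summed to 1469, 688 and 989 CPM in members and to 2092, 758 and 773 CPM in low macrophage nuclei. Ccl6 had 66, 17 and 28 UMIs and Ccr1 75, 32 and 33. Among those with too few UMIs to compare, Ccl24 had 9, 6 and 10 and Cxcl16 3, 6 and 3. Of 5 inflammatory genes compared, Ccl2 alone was past 2-fold. Tnf, Il6 and Nos2 had 0 UMIs in all members. Il1b had 1, 1 and 2 UMIs. Of the alternative activation genes 3 were compared and 0 were past 2-fold, with Clec10a at 237, 256 and 259 CPM. Retnla had 0 UMIs in all members. Of the growth factor and matrix genes 5 of 20 were compared, and Spp1 was past 2-fold in both libraries. Of 3 class II genes compared, RT1-Db1, Cd74 and Ctss, 0 were past 2-fold with all members. Without the nuclei over 5% mitochondrial UMIs Cd74 was past it in DMD, at 1.34. Of the 44 WT UMIs of RT1-Db1 30 lay in those nuclei.

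Genes of the cell division list were seen in the members of every library, with 137, 113 and 28 UMIs. Pola1, a subunit of DNA polymerase alpha, had the most UMIs of the list (59, 60 and 20). Mki67 had 12, 10 and 0 UMIs and Top2a 11, 10 and 0. Over 7 genes of mitosis, picked after their values were seen (Mki67, Top2a, Cenpf, Cenpe, Aspm, Bub1b and Cdk1), the sums were 49, 36 and 0 UMIs, from 12 WT and 8 BMD nuclei. A single BMD nucleus held 24 of the 36. At least 3 UMIs of these genes were found in 5 WT members (2.82%, 0.92 to 6.47) and 3 BMD members (1.52%, 0.32 to 4.39). In nuclei thinned to 500 UMIs, a UMI of them was seen in 5.08% of WT members (2.35 to 9.43) and 1.52% of BMD members (0.315 to 4.39), or 6.78% and 4.06% before thinning. Of the thinned fibroblast nuclei 0.337%, 1.38% and 1.11% had such a UMI. The BMD member share was above each of these values, and its interval reached down to them. In DMD 0 of 136 members had one, which allows a share of up to 2.21% by a floor of 3 counts and of 2.68% by the exact interval. Since the 7 genes were picked after their values were seen, nothing is read from the 0. None of the immediate early genes reached 100 UMIs. Their sums were 98, 50 and 34 UMIs, of which 57, 48 and 34 were left without the nuclei over 5%.

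RNA of other cell types moved between the member sets as well. Cardiomyocyte genes summed to 1277 CPM in WT, 2234 in BMD and 1513 in DMD members, against 18497, 22582 and 14980 CPM in other nuclei, and Ryr2 had most UMIs among them (112, 188 and 77). Fibroblast genes summed to 412, 346 and 685 CPM and endothelial genes to 74.9, 52.9 and 246 CPM. Col3a1 had most UMIs of the fibroblast list (34, 37 and 48), and Vwf 2, 1 and 10 UMIs. Mural cell genes summed to 166, 183 and 465 CPM, led by Abcc9 with 20, 22 and 36 UMIs, and Acta2 had 0 in every library. The DMD mural UMIs came from few nuclei. Of the 36 Abcc9 UMIs 17 lay in 1 nucleus, and the 22 Rgs5 UMIs came from 4 nuclei. Nuclei that Scrublet called doublets held 14, 9 and 14 of the Abcc9 UMIs and 7, 7 and 16 of the 10, 11 and 22 Rgs5 UMIs. The fibroblast, endothelial and mural lists were highest in DMD members, although the rule had capped the fibroblast and endothelial genes per nucleus. A list of neutrophil and monocyte genes summed to 628, 118 and 317 CPM, of which Fn1 and Vcan made up 121 of 151 UMIs in WT. Of these, 52 of 68 for Fn1 and 42 of 53 for Vcan lay in nuclei over 5% mitochondrial UMIs. Without such nuclei the list summed to 275, 116 and 313 CPM, so its log2 ratio went from -2.41 to -1.24 in BMD and from -0.99 (-1.48 to -0.51) to 0.19 (-0.41 to 0.77) in DMD. The lymphatic list had 6, 14 and 11 UMIs, the T or B cell list 19, 18 and 19, the dendritic list 31, 21 and 27, the Schwann cell list 7, 5 and 2, the erythroid list 0, 4 and 1, and the adipocyte list 0. Apart from the subtraction of free RNA, the part of other cell types in the ratios of Mgp, Gsn, Lamc1, Sorbs2 and Cdh2 was not tested.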

How the data were processed

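Heart nuclei of each genotype were sequenced as 1 10x Genomics library. It is taken here as 3′, the kit in the study's methods, while a passage of the study's results names 5′. The deposited unique molecular identifier counts were made by the authors with Cell Ranger, which the file headers give as version 6.0.1 for the aggregate holding WT and as version 4 for BMD and DMD, and the submitters' processing notes name the rat build rn6. WT was read from the aggregate by its barcode suffix. That aggregate had been scaled down, keeping 76.1% of BMD and 92.9% of DMD UMIs, so BMD and DMD were read from their own files. The barcodes with most UMIs were kept as nuclei, up to the number the study gives per library, holding 79.4%, 70.8% and 71.6% of all UMIs.

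Members were chosen by the UMI limits given above, and they and all gene lists were chosen with earlier results of these data known. Their counts were summed per library, scaled to counts per 1000000 UMIs (CPM), and compared as log2 ratios of CPM + 5 for genes with at least 100 UMIs over the 3 libraries. Genes past 2-fold were counted. Intervals (95%) were exact Poisson for CPM, exact conditional binomial for ratios, Clopper-Pearson for shares and Newcombe for differences. They cover counting error only. No test between genotypes was made.

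Genes were named by a rule of size: the 10 highest and 10 lowest by the ratio nearer 0 of BMD over WT and DMD over WT, and the 6 highest and 6 lowest of DMD over BMD, where the counting interval left out 0; the 15 genes outside the rule highest over other nuclei and the 8 highest and 8 lowest against low macrophage nuclei, each by the least extreme library; and the genes of the lists. Doublets were called with Scrublet in scanpy 1.11.5 and kept, and were removed as an alternative. Shares of nuclei with a UMI were set at 500 UMIs per nucleus. Alternatives covered the depth, rule and exclusion limits, mitochondrial RNA, doublets, normalisation (trimmed mean of M values, edgeR 4.0.16), pseudocount, low-count limit, free RNA and means over nuclei. Of the steps, only the log2 ratios, their intervals and the 2-fold calls were tested on simulated counts. Those were Poisson draws of summed counts, without the clumping of UMIs in single nuclei seen here. Python 3.11.15, SciPy 1.17.1 and R 4.3.3 were used.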

Additional observations from a re-analysis of the deposited data

How the results depend on the processing

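The BMD share of members stayed above WT under each of the 7 alternatives tried, by 0.71 to 1.55 percentage points. The DMD share differed from WT by 0.58 points without limits on other cell types, and by -0.35 to 0.27 under the other 6. Numbers of genes past 2-fold followed the limit on UMIs. With at least 50 UMIs (3145 genes) they were 48 higher and 85 lower for BMD over WT, 73 and 99 for DMD over WT, and 73 and 62 for DMD over BMD. With at least 200 UMIs (666 genes) they were 6 and 11, 5 and 10, and 4 and 3. Without nuclei over 5% mitochondrial UMIs 18 genes were lower in BMD and 15 in DMD than in WT, and 23 of 43, 24 of 45 and 28 of 35 genes past 2-fold remained so in the 3 comparisons. Trimmed-mean scaling gave 20 genes lower in DMD than BMD, where the median ratio of all genes was -0.11. With free RNA subtracted 21 genes were higher in BMD and 32 in DMD than in WT, and 23 were lower in DMD than BMD. The ratio of Gsn for DMD over BMD reversed to -0.92 there, on the little left by an upper estimate of free RNA, and the cause was not tested. A ratio is called moved where it left its counting interval. Of 182 ratios of named genes, free RNA moved 16 further ones, the mitochondrial limit 10 and means over nuclei 4, and a limit of 6 UMIs of the rule genes 2, with fewer genes left to compare under the mitochondrial and 6-UMI limits. The pseudocount moved 0 of 182, Scrublet 0 of the 177 that could still be computed and the counts of the aggregate 0 of 174. Genes past 2-fold were lost even so, but here and under the mitochondrial limit a gene that fell under 100 UMIs also counts as lost. Without Scrublet doublets (1527 genes compared) 39 of 43, 37 of 45 and 27 of 35 were left. With the counts of the aggregate (1454 genes) 37, 38 and 24 were left. Means over nuclei left 35, 31 and 28, and at least 6 UMIs (1325 genes) left 28, 30 and 23. Leaving out for each gene the nucleus with most of its UMIs, added after the data were seen, moved 1, Spp1 in DMD over WT, to -1.91, and left 43, 41 and 31 of the genes past 2-fold, with Adgrl3 in DMD over WT down to 0.47. No paired analysis was possible because each genotype had 1 library, and for the same reason no replicate could be left out. Depth limits single members to a median of 1033 to 1187 UMIs, so genes under 100 UMIs were not compared.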
